A study of Homo sapiens with 6 samples.

Results

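The genes described are 5 secreted insulin-like growth factor (IGF) binding proteins (IGFBP2, IGFBP3, IGFBP4, IGFBP5 and IGFBP6), 3 receptors (IGF1R, IGF2R and INSR) and 2 receptor substrates (IRS1 and IRS2). They were matched by symbol in a table of 26364 genes, where all 10 were found. The genes were chosen by their role in IGF signalling with the siELF5 against siNC values of these same libraries in view, so values of the 10 genes in that contrast are given as a description. T47D, a widely used luminal A line from human breast cancer that carries estrogen and progesterone receptors, was transfected with an siRNA against ELF5 (siELF5, Ambion AM16708) or with a control siRNA (siNC, Ambion 4390846). RNA was taken 48 h after transfection, and each group held 3 RNA-seq libraries. All libraries came from the same cell line, and each group received 1 siRNA product, so every difference compares both target and product. The labels do not say whether the replicates were separate cultures, so the spread between libraries may be technical.

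IGF1 and IGF2 are peptide growth factors that signal through the tyrosine kinase receptor IGF1R, and IGF2 also through INSR, the insulin receptor. Activated receptors phosphorylate the docking proteins IRS1 and IRS2, which recruit PI3K. The binding proteins hold IGFs outside the cell, lengthen their life and limit or direct their access to the receptor, and IGFBP5 is known in the mammary gland for its increase during involution after lactation. ELF5 is an ETS-family transcription factor of the luminal progenitor and alveolar lineage.

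Values are normalised read counts, that is, gene read counts divided by a size factor for each library. The libraries held 66.8 M to 83.7 M assigned reads. ELF5 itself had 3678, 3725 and 3638 normalised reads in siELF5 and 13225, 13148 and 12910 in siNC, which matched the labels. Of the 8 luminal epithelial markers checked, every one was abundant, with at least 14004 normalised reads in every library. Their summed levels were 612503 to 635290 in siELF5 and 668479 to 716924 in siNC, but the genes went both ways. KRT8 and KRT18 were lower in siELF5 (log2 fold changes -0.41 and -0.45), ESR1, FOXA1, PGR and GATA3 were higher (0.45, 0.31, 0.22 and 0.15), and KRT19 and EPCAM did not pass the threshold. KRT5, KRT14, COL1A2, PDGFRB, DCN, PECAM1, CDH5, PTPRC and CD3E were at or near 0, with at most 16.4 normalised reads in any library. Of the other 3 markers of basal, mesenchymal and leukocyte cells, COL1A1 had 3220 to 3765 normalised reads in siELF5 and 4029 to 5184 in siNC, TP63 had 198 to 204 in siELF5 and 154 to 170 in siNC, and CD68 had 160 to 178 in siELF5 and 125 to 143 in siNC. Their part in the results was not tested. Transcripts rich in G and C differed between the groups as a class. A library GC score (the median log2 deviation of the tenth of genes richest in GC minus that of genes of middle GC content) was 0.23, 0.29 and 0.22 in siELF5 and -0.41, -0.22 and -0.08 in siNC. GC content is therefore given beside the members it touches. The score was computed from these same expression values and did not overlap between the groups. A fit with the score as covariate can therefore hardly tell group from score, and not passing there does not show that a gene was unchanged.

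IGFBP5 was the member with the largest difference. IGFBP5 binds IGFs with high affinity and also attaches to the extracellular matrix. It had 65151, 61865 and 63866 normalised reads in siELF5, against 170762, 170837 and 165641 in siNC. The groups lay far apart, and the spread within each was small (63627 ± 1656 in siELF5 and 169080 ± 2979 in siNC, SD, n = 3 each). The siELF5 mean was 37.6% of the siNC mean, a log2 fold change of -1.41 (SE 0.03), or 2.66-fold lower. IGFBP5 took 0.0860%, 0.0825% and 0.0859% of all normalised reads in siELF5, against 0.222%, 0.222% and 0.217% in siNC. By normalised read count it was the 99th gene in siELF5 and the 17th in siNC. Only EEF1A1, a translation elongation factor named here after its values were seen, was lower by more normalised reads (514694 in siELF5 and 638962 in siNC). The transcript has 51.9% GC, and the log2 fold change was -1.40 (SE 0.03) after a per-library GC correction and -1.33 (SE 0.08) with the GC score as covariate. In RNA from whole cultures, fewer cells that express a gene and less RNA per cell cannot be told apart.

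**Figure D1:**
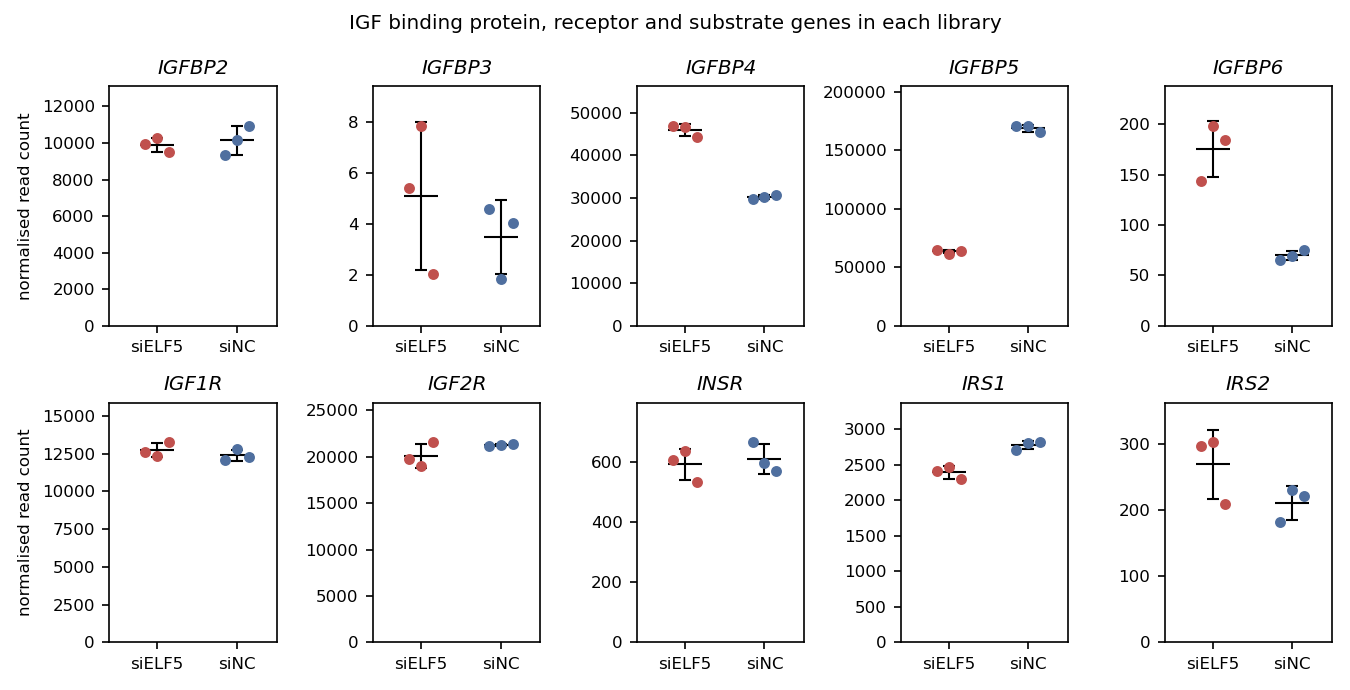
Normalised read count (y axis, from 0, a scale for each gene) of the 10 genes in the siELF5 (red) and siNC (blue) libraries. Points are libraries, and the black bars are the mean and SD (n = 3). IGFBP4 and IGFBP6 are higher, and IGFBP5 and IRS1 lower, in all 3 siELF5 libraries than in any siNC library.

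IGFBP4 differed the other way. IGFBP4, an IGF carrier that is cleaved by the protease PAPP-A and is known to be induced by estrogen in breast cancer cells, had 46877, 46524 and 44329 normalised reads in siELF5, against 29696, 30111 and 30771 in siNC. No siELF5 library overlapped with siNC, and the siELF5 mean was 152% of the siNC mean. The transcript is GC-rich (62.5%). Its log2 fold change of 0.60 (SE 0.03) was 0.30 (SE 0.04) after the GC correction and 0.52 (SE 0.08) with the GC score as covariate.

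IGFBP6, which prefers IGF2 over IGF1, was expressed at a low level and was also higher. It had 144, 198 and 184 normalised reads in siELF5, against 65.5, 69.2 and 74.9 in siNC. The groups did not overlap, and the siELF5 libraries varied more (175 ± 28.1) than the siNC libraries (69.9 ± 4.71, SD, n = 3 each). The log2 fold change was 1.30 (SE 0.17), or 2.47-fold higher. This transcript is GC-rich too (64.1%), and the value was 0.87 (SE 0.17) after the GC correction. With the GC score as covariate it was 0.96 (SE 0.46) and did not pass the threshold.

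IGFBP2, a carrier that can also bind integrins, showed no separation of the groups as measured. It had 9918, 10279 and 9495 normalised reads in siELF5 and 9316, 10171 and 10928 in siNC. The ranges overlapped, and the log2 fold change was -0.03 (SE 0.05). Within siNC the lowest value came from replicate 1, which had the lowest GC score, and the highest from replicate 3, which had the highest score. IGFBP2 has the highest GC content of the 10 transcripts (67.7%), and its value depended on how GC was treated. The log2 fold change was -0.85 (SE 0.04) after the GC correction and -0.38 (SE 0.08) with the GC score as covariate, and both passed the threshold. The part of the libraries' GC difference in these values was not tested.

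IGFBP3, the main IGF carrier of serum, was barely detected. It had 16 reads over the 3 siELF5 libraries (95% Poisson interval 9.15 to 26.0, counting error only) and 10 over the 3 siNC libraries (4.80 to 18.4). Its mean of 4.31 normalised reads was below the minimum of 10 set for testing. A difference between the groups was not detectable at this depth.

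Levels of different genes were compared per kilobase of transcript, using the longest protein-coding GENCODE 29 transcript of each gene. On this scale IGFBP4 and IGFBP5 changed places at the head of the binding proteins. Without division by transcript length, IGFBP5 stayed above IGFBP4 in siELF5 (means of 63627 and 45910 normalised reads). IGFBP4 stood at 20868 ± 628 normalised reads per kilobase in siELF5 and 13724 ± 247 in siNC, and IGFBP5 at 10238 ± 266 in siELF5 and 27205 ± 479 in siNC (SD, n = 3 each). The ratio of IGFBP4 to IGFBP5 was 1.96 to 2.12 in the siELF5 libraries, against 0.491 to 0.525 in the siNC libraries. IGFBP2 came next in both groups, with 6878 ± 273 per kilobase in siELF5 and 7045 ± 560 in siNC. The 5 binding proteins summed to 38135 ± 849 per kilobase in siELF5 and 48036 ± 459 in siNC. IGFBP5 made up 26.9% ± 0.874 of this sum in siELF5 and 56.6% ± 1.35 in siNC, and IGFBP4 made up 54.7% ± 0.458 in siELF5 and 28.6% ± 0.34 in siNC. IGFBP6 contributed 0.391% in siELF5 and 0.124% in siNC, and IGFBP3 less than either. These sums and shares carry no GC correction. With it, the log2 fold change went from 0.60 to 0.30 for IGFBP4 and from -0.03 to -0.85 for IGFBP2.

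**Figure D2:**
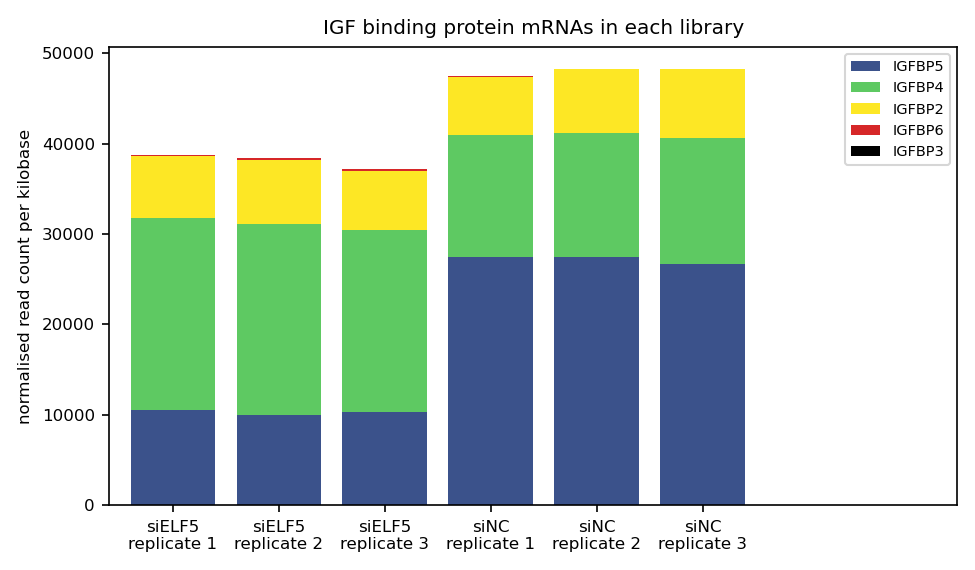
Summed normalised read count per kilobase of transcript (y axis) of the 5 IGF binding protein genes in each library, stacked by gene. IGFBP5 (dark blue) is the smaller of the 2 main layers in the siELF5 libraries and the larger in the siNC libraries. IGFBP6 is barely visible as a thin line and IGFBP3 is too thin to see.

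The start regions of the 3 binding proteins whose groups did not overlap are shown because ETS factors such as ELF5 bind sequences with a GGAA core. Each is the RefSeq window on GRCh38.p14 from 250 bases before to 50 bases from the annotated start, 5′ to 3′ on the gene's strand, with each GGAA, or TTCC for the other strand, in capitals. IGFBP5 is at chr2:216695500-216695799 on the minus strand. IGFBP4 is at chr17:40443200-40443499 and IGFBP6 at chr12:53097417-53097716, both on the plus strand.
IGFBP5: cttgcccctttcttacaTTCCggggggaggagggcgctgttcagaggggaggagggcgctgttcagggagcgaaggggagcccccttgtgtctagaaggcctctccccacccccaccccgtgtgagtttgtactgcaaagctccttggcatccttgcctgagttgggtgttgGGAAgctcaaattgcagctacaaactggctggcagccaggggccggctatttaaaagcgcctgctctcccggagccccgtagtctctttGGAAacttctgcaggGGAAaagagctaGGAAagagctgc
IGFBP4: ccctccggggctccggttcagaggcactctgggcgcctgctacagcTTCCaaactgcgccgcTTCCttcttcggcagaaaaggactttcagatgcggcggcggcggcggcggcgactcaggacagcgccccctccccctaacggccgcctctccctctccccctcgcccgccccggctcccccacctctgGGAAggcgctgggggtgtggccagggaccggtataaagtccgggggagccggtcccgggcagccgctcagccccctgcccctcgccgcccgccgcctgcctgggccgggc
IGFBP6: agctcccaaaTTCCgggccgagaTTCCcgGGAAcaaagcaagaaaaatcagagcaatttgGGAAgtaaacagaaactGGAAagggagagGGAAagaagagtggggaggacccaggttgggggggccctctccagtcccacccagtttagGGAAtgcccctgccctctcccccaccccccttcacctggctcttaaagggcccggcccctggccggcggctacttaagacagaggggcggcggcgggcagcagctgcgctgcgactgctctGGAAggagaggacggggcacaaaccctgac
GGAA was found 5 times in the IGFBP5 window, 3 times in that of IGFBP4 and 8 times in that of IGFBP6, counting both strands. At the gene starts of the other members it was found 3 times for INSR and 2 times for IRS1, IGF2R and IGFBP3. It was found 1 time for IGFBP2, IGF1R and IRS2, and the other IGFBP2 windows held 4 and 1. At least 1 GGAA was present in 95.5% of the 35116 RefSeq windows of the same length, with a median of 3. At least as many as in IGFBP5 were found in 28.6% of windows, at least as many as in IGFBP4 in 66.0%, and at least as many as in IGFBP6 in 3.78%. The longer ETS sequence CCGGAAGT, which contains GGAA, occurs in 4.14% of windows and in none of the windows of the 10 genes. These letter matches are descriptions of the windows. IGFBP2 and IGFBP5 follow each other on chromosome 2 in RefSeq with 0 annotated genes between them, and their log2 fold changes were -0.03 and -1.41.

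The receptors differed little. IGF1R, the IGF receptor kinase, had 12577, 12363 and 13229 normalised reads in siELF5 and 12073, 12770 and 12283 in siNC. The groups overlapped, with a log2 fold change of 0.04 (SE 0.04). IGF2R, which has no kinase domain, clears IGF2 from the cell surface and carries lysosomal enzymes. It had 19794, 18995 and 21534 normalised reads in siELF5 and 21172, 21260 and 21384 in siNC, a log2 fold change of -0.08 (SE 0.04). Replicate 3 of siELF5 lay above all siNC libraries while the other siELF5 replicates lay below them. Without it the log2 fold change was -0.13 (SE 0.03) and passed the threshold, but leaving it out removes the overlap itself. Leaving out any other library gave values that did not pass, such as -0.04 (SE 0.04) without siELF5 replicate 2. INSR had 532 to 634 normalised reads in siELF5 and 568 to 663 in siNC, with a log2 fold change of -0.05 (SE 0.09). Per kilobase, IGF1R was 15.9 ± 2.05 times as abundant as INSR in siELF5 and 14.9 ± 1.41 times in siNC.

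Of the receptor substrates, IRS1 was slightly lower and IRS2 did not pass the threshold. IRS1, the main substrate of IGF1R in estrogen receptor positive breast cancer lines, had 2403, 2470 and 2293 normalised reads in siELF5, against 2708, 2797 and 2811 in siNC. All siELF5 libraries lay below all siNC libraries. The siELF5 mean was 86.2% of the siNC mean, a log2 fold change of -0.21 (SE 0.05). The value was -0.19 (SE 0.05) after the GC correction, and with the GC score as covariate it was -0.32 (SE 0.12) and did not pass the threshold. IRS2, the related docking protein, had 297, 302 and 210 normalised reads in siELF5 and 182, 231 and 221 in siNC. Replicate 3 of siELF5 lay within the siNC range. The log2 fold change was 0.34 (SE 0.16) and did not pass, while without that library it was 0.51 (SE 0.14) and passed. Leaving that library out removes the overlap itself, and leaving out any other library gave values that did not pass. With the GC score as covariate the log2 fold change was -0.17 (SE 0.37). Per kilobase, IRS1 was 7.61 ± 1.36 times as abundant as IRS2 in siELF5 and 11.1 ± 1.22 times in siNC (SD, n = 3 each).

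In order of level per kilobase, the siELF5 libraries had IGFBP4, IGFBP5, IGFBP2, IGF2R, IGF1R, IRS1, IGFBP6, INSR, IRS2 and IGFBP3, and no neighbours in this order overlapped. The siNC libraries had IGFBP5, IGFBP4, IGFBP2, IGF2R, IGF1R, IRS1, INSR, IGFBP6, IRS2 and IGFBP3. There, INSR (63.4 to 74.1 per kilobase) and IGFBP6 (55.7 to 63.6) overlapped and the other neighbours did not.

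Of the 10 members, 9 passed the filter on low values and entered the fit across 16032 genes. In that fit 4 of the 9 had a limma adjusted p under 0.05, 2 higher in siELF5 (IGFBP4 and IGFBP6) and 2 lower (IGFBP5 and IRS1). Of all genes tested, 47.1% passed, 23.8% higher and 23.3% lower in siELF5. The groups did not overlap for the same 4 of 9 members, against 55.9% of all genes tested. The median log2 fold change was -0.03 over the tested members and 0.00155 over all tested genes. The absolute log2 fold change of IGFBP5 ranked 313th of the 16032.

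**Figure D3:**
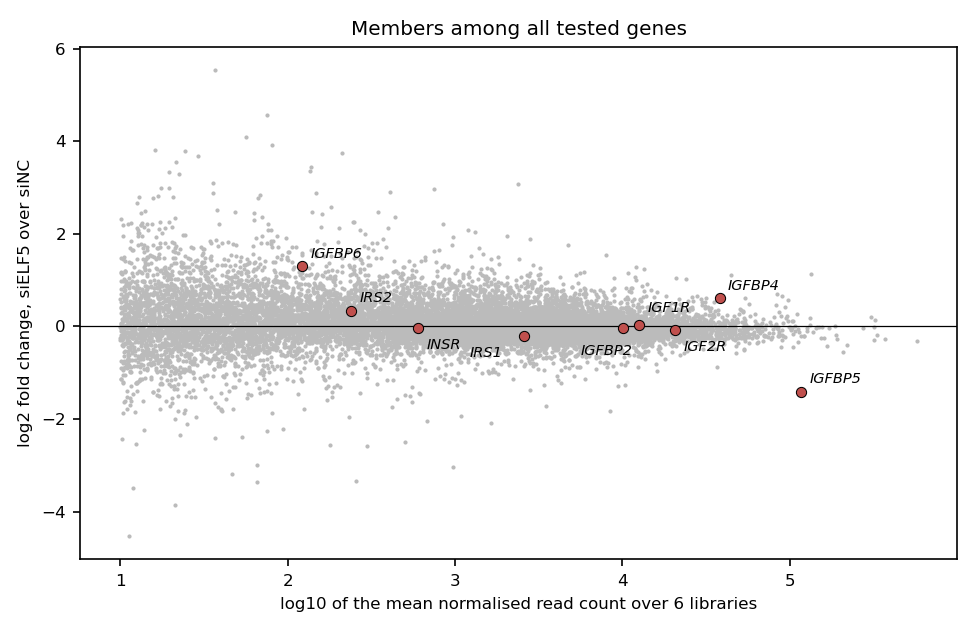
Log2 fold change, siELF5 over siNC (y axis), against the log10 of the mean normalised read count over 6 libraries (x axis) for the 16032 tested genes (grey), with the 9 tested members in red. IGFBP5 lies at -1.41 at the abundant end, below the other genes of like level, and the 3 receptors lie near 0.

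**Figure D4:**
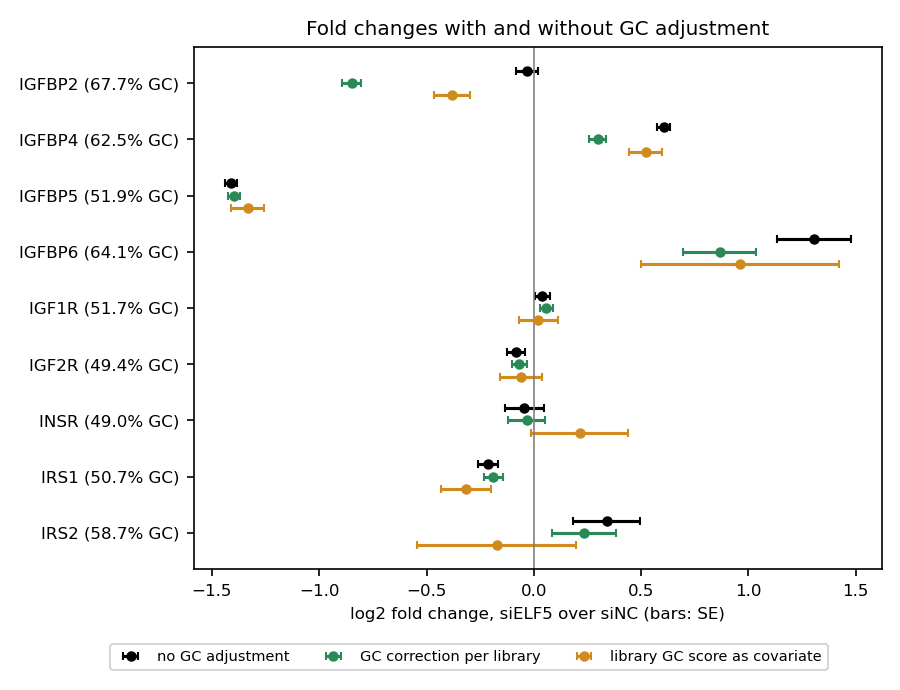
Log2 fold change with its SE (x axis) of the 9 tested members without GC adjustment (black), after GC correction per library (green) and with the GC score as covariate (orange). The transcript's GC content stands beside each name. IGFBP5 stays between -1.41 and -1.33, whereas IGFBP2 goes to -0.85 and -0.38.

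A 7-base sequence, CACTAAC or its shifted form ACTAACA, had been picked by an earlier search of these data and was counted in 3′ untranslated regions. It was present in 618 of 3428 genes lower in siELF5, 224 of 3436 higher genes (6.52%) and 672 of 6549 genes that did not pass (10.3%), which is given as a description. The median length of these regions was 1668, 1010 and 1173 bases. Counted on the sense strand, with overlapping matches taken as 1 site, it was present 2 times in the region of IGF1R and 0 times in those of the other 8 tested members, IGFBP5 included. Among genes with a region of similar length (within 20%), 35.5% had it for the length of IGF1R and 26.2% for that of IGFBP5.

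Beyond the members, 61 listed genes of the IGF and insulin pathway were in the table and 53 entered the fit. In siELF5, 15 of them rose and 13 fell (limma adjusted p under 0.05), and the other 25 did not pass. The share that passed was 52.8%, against 47.1% of all genes, with a median log2 fold change of 0.04. Of the 28 that passed, 24 differed by less than 1.5-fold, as did 77.8% of all genes that passed. After the GC correction 12 rose and 19 fell, and over all 14941 genes tested in that setting 3216 were higher and 4255 lower. With the GC score as covariate 3 pathway genes rose (HTRA1, M6PR and PHLPP2) and 2 fell (GAB1 and PIK3R3). The other pathway genes named below did not pass in that setting, where the standard errors were larger.

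The ligands were near absent. IGF1 had 9.06, 21.6 and 10.3 normalised reads in siELF5 and 5.75, 10.1 and 6.07 in siNC. The log2 fold change was 0.76 with an SE of 0.50 (limma adjusted p = 0.241). The IGF1 mean over all libraries (10.5) reached the minimum only through the siELF5 libraries (mean 13.6, against 7.32 in siNC). Its fit is therefore given as a description only. IGF2 had 47 reads in all over the siELF5 libraries (95% Poisson interval 34.5 to 62.5) and 8 over the siNC libraries (3.45 to 15.8), and all siELF5 libraries lay above all siNC libraries. Its mean was below the minimum for testing. IGF2 had 16.3, 5.89 and 23.6 normalised reads in siELF5 and 2.30, 3.69 and 2.02 in siNC. When no minimum was set, IGF2 passed at 1.99 on the log2 scale (limma adjusted p = 0.0118, with an SE of 0.55). Without 1 siNC library its mean reached the minimum, but only through the higher siELF5 values, so those fits are not given. INS was at 0 in all 6 libraries. Among other binding proteins, IGFBPL1, a relative of the IGF binding proteins, rose by 0.40 (SE 0.09, limma adjusted p = 0.00267). IGFALS, which stabilises IGF complexes in serum, rose by 1.31 from a low level (28.98 to 36.3 normalised reads in siELF5 and 8.05 to 17.5 in siNC, SE 0.36, limma adjusted p = 0.00993). Both are GC-rich, and neither passed after the GC correction (0.10 and 0.35). With the GC score as covariate IGFBPL1 was at 0.59 (SE 0.24) and IGFALS at 0.15 (SE 0.97), and neither passed. IGFBP1 was at 0 in all libraries.

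Of the binding protein proteases and their inhibitors, HTRA1 rose and STC1 fell. HTRA1, a secreted serine protease known to cleave IGFBP5, had 484, 498 and 406 normalised reads in siELF5, against 138, 151 and 136 in siNC. The siELF5 libraries were all above the siNC libraries, with a log2 fold change of 1.70 with an SE of 0.12 (limma adjusted p = 2.41e-07), and 1.60 after the GC correction. STC1, stanniocalcin 1, an inhibitor of PAPP-A, fell by 0.26 on the log2 scale (SE 0.06, limma adjusted p = 0.00274). Its relative STC2 was abundant, with 77546 to 80640 normalised reads in siELF5 and 70498 to 76516 in siNC, and did not pass (log2 fold change 0.09, limma adjusted p = 0.0519). It passed after the GC correction (0.10, limma adjusted p = 0.0130). With the GC score as covariate STC2 was at -0.08 (SE 0.08) and did not pass. PAPPA, the gene of PAPP-A, had 38.9 to 76.0 normalised reads in siELF5 and 41.5 to 60.9 in siNC (limma adjusted p = 0.699). Neither of the 2 tested IGF2 mRNA-binding proteins passed.

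In the receptor maturation and mannose 6-phosphate group, 3 of 5 tested genes rose and 0 fell. Of all genes tested, 23.8% were higher and 23.3% lower in siELF5. After the GC correction 4 of the 5 rose, GNPTAB added, and NAGPA fell by 0.29 on the log2 scale. Over all 14941 genes in that setting, 3216 were higher and 4255 lower. The group is small, and its counts are a description. Of the group, M6PR alone passed with the GC score as covariate. FURIN, the protease that cleaves the IGF1R and INSR precursors, rose by 0.45 (SE 0.06, limma adjusted p = 9.27e-05), with 61.7% GC and 0.20 after the GC correction. In the covariate fit FURIN was at 0.04 (SE 0.12) and did not pass. M6PR, the smaller mannose 6-phosphate receptor, rose by 0.22 (SE 0.05) and GNPTG, a subunit of the enzyme that makes the mannose 6-phosphate tag, by 0.21 (SE 0.05). With the covariate GNPTG was at -0.07.

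Of 12 tested adaptors and receptor inhibitors, 1 rose and 4 fell, and after the GC correction 0 rose and 6 fell. Over all genes tested, 23.8% were higher and 23.3% lower. After the GC correction 3216 of all 14941 genes were higher and 4255 lower. SOCS3, a feedback inhibitor that also binds insulin and IGF receptors, had 121, 112 and 105 normalised reads in siELF5, against 260, 208 and 253 in siNC, a log2 fold change of -1.08 with an SE of 0.14 (limma adjusted p = 5.06e-05). GAB1, a docking protein related to the IRS family, fell by 0.47 on the log2 scale (SE 0.04, limma adjusted p = 9.52e-07), and GIGYF2, a GRB10-binding protein, by 0.18 (SE 0.04). GIGYF2 was at -0.02 with the GC score as covariate, and neither it nor SOCS3 passed there. SH2B2, an adaptor of the insulin receptor, rose by 0.97 (SE 0.25, limma adjusted p = 0.00628) at 68.3% GC, and was at 0.07 after the GC correction, where it did not pass. With the covariate it was at 0.43 (SE 0.66).

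Genes of PI3K and its opposing phosphatases went both ways, 4 up and 4 down of 10, against 23.8% higher and 23.3% lower of all genes tested. PIK3R3, a regulatory subunit of PI3K, had 4413, 4446 and 4272 normalised reads in siELF5, against 6245, 6167 and 6007 in siNC, a log2 fold change of -0.49 with an SE of 0.04 (limma adjusted p = 4.23e-07). PIK3R2, another regulatory subunit, rose by 0.39 (SE 0.06) but has 64.2% GC and stood at -0.06 after the GC correction. The phosphatases INPP4B and PHLPP1 fell by 0.28 and 0.21 on the log2 scale (SE 0.04 and 0.06), and were at -0.19 and -0.13 with the GC score as covariate, where neither passed. Of 16 genes of AKT, mTOR and FOXO, 4 rose and 4 fell, and after the GC correction 3 rose and 7 fell. The GC correction gave 3216 higher and 4255 lower of all 14941 genes. FOXO1, a transcription factor restrained by AKT, rose by 0.34 (SE 0.09) and RPS6KB1, the S6 kinase gene, by 0.24 (SE 0.03). TSC1, which restrains mTOR, and the kinase gene GSK3B fell by 0.30 and 0.20 on the log2 scale (SE 0.04 and 0.03). In the covariate fit TSC1 was at -0.14 (SE 0.10) and GSK3B at -0.06 (SE 0.08), and none of the 16 passed.

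**Figure D5:**
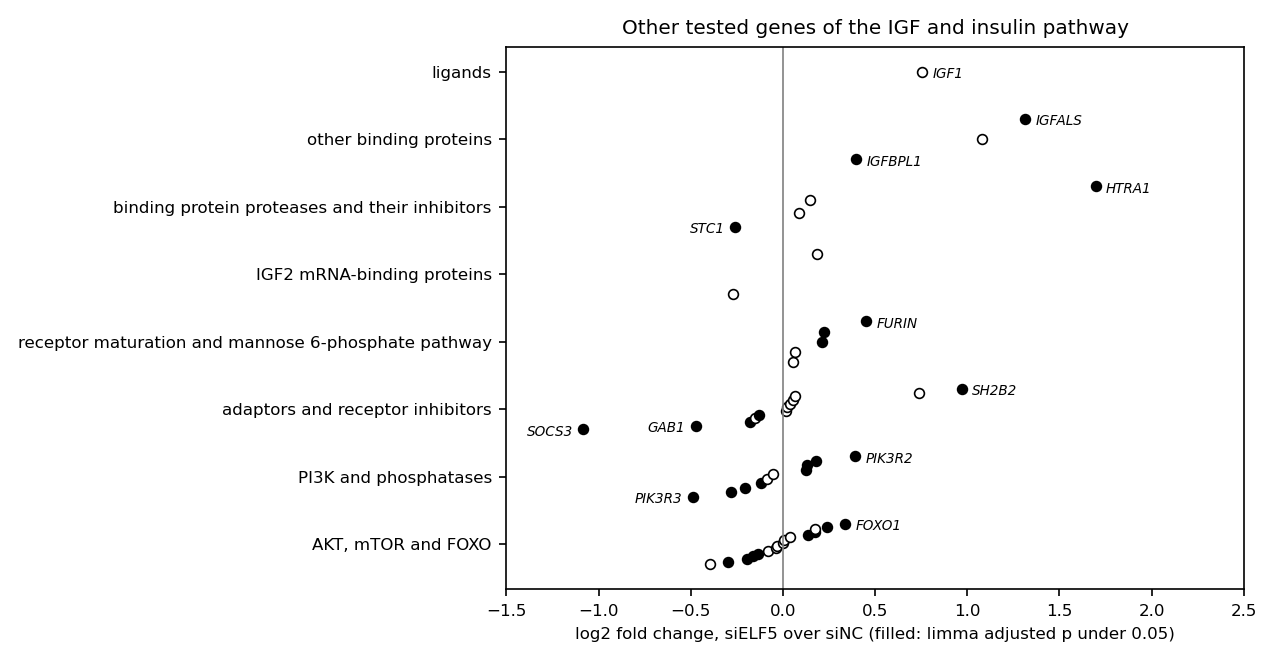
Log2 fold change, siELF5 over siNC (x axis), of the 53 tested pathway genes other than the members, by group (y axis). Filled points had a limma adjusted p under 0.05. HTRA1 at 1.70 and SOCS3 at -1.08 lie farthest out among the filled points on either side.

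Patterns over the libraries were compared by the Euclidean distance between log2 values centred on each gene's mean, over 6 libraries and 9103 genes with a mean of at least 1000. The genes nearest to IGFBP5 were NAALADL2 (distance 0.0917), NGRN (0.178), ABCC5 (0.215), PCP4 (0.231) and KITLG (0.251), with log2 fold changes from -1.38 to -1.22. NAALADL2 had 1531, 1508 and 1609 normalised reads in siELF5, against 4103, 3978 and 4028 in siNC. Only 2 genes lay within a distance of 0.2 of IGFBP5, whereas 2943 lay within 0.2 of IGF1R. The nearest to IGF1R were DTYMK, ZNF407, NCOA7, PHKA2 and GRIK3, at distances of 0.0403 to 0.0504. Distances grow with the size of the difference between groups, so the number of near genes is smaller for a gene that differs more.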

How the data were processed

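RNA-seq libraries of T47D cells (3 siELF5, 3 siNC) were grouped by their titles. Per the submitters' processing notes, the reads were processed on hg19 with STAR 2.6, Subread, featureCounts 1.6.3 and DESeq2 1.22.1. The sources used here state no counting options, and the kit named in the labels, TruSeq RNA v2, does not mark strand. The authors deposited signal values for each library, together with a mean. The spacing shows them to be read counts over a per-library size factor. Every non-zero value was a whole multiple of its column's smallest value (100% of values, tolerance 1e-06), so whole reads were recovered. The authors' DESeq2 results (log2 fold change, standard error, test score, p-value and adjusted p), per the file headers, were not used.

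Genes with a mean of at least 10 (16032) were tested two-sided with limma 3.58.1 (R 4.3.3, trend option) on log2(value + 1). Adjustment was by Benjamini-Hochberg at 0.05. On this log2(value + 1) scale a low gene's fold change is understated. On recovered reads, edgeR 4.0.16 called 7578 genes and DESeq2 1.42.0 called 7292, against 7559. For the GC correction, a loess curve (span 0.3) of log2 deviations on transcript GC content was subtracted in each library. GC content was known for 93.2% of tested genes. The scripts were tested on simulated data. No 2 replicates were as alike as sampling noise allows (chi-square per degree of freedom 4.37 to 12.0).

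The members, lists and alternatives were chosen with earlier results of these data known. All members were named, and in each pathway list every gene past the threshold up to 4, or the 4 with the largest fold change, with the ligands, ELF5 and the 5 genes nearest to IGFBP5 and to IGF1R. STC2, PAPPA, IGFBP1, EEF1A1, GNPTAB, NAGPA and PHLPP2 were added after their values were seen. GENCODE 29 and RefSeq (GRCh38) served for names, lengths and sequences, and the counts are on hg19. Alternatives were other pseudocounts, no filter, other scalings, count tests, GC adjustments, a replicate block and leaving out each library.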

Additional observations from a re-analysis of the deposited data

How the results depend on the processing

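IGFBP5 and IGFBP4 kept their direction and passed the threshold under all 17 alternatives, and IGFBP6 and IRS1 under all but the library GC score as a covariate. With that covariate 1156 genes were called against 7559, 5 other pathway genes against 28, and the median standard error was 0.150 against 0.063. The score did not overlap between the groups, so that fit cannot tell group and score well apart. PIK3R2 turned to -0.056 under the GC correction, with and without the replicate block, EIF4EBP1 to -0.43 under the same 2 settings (0.14 without correction), and with the GC score as a covariate AKT2 was at -0.00846 and GNPTG at -0.068. The cause was not tested. As a share of per-kilobase values, the IGFBP5 difference between siELF5 and siNC was -0.0636 percentage points, against -0.136 of reads. The per-kilobase share divides each gene by its transcript length.

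Leaving out each library in turn gave 6167 to 7324 genes, 4 to 6 members, 25 to 31 other pathway genes and an IGFBP5 share difference of -0.138 to -0.134 percentage points. The 6 members were reached without siELF5 replicate 3, which added IGF2R and IRS2. Same-numbered replicates deviated from their group means with correlations of -0.06 to 0.01, so the numbers were not taken as pairs. With the replicate block 7174 genes, 4 members and 28 other pathway genes were called. Depth limits IGFBP3 and IGF1. IGF2, below the minimum, passed when none was set.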
